A study of Caenorhabditis elegans with 6 samples.

Results

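The germline and maternal genes described here are 60 of the 32238 Caenorhabditis elegans genes counted, and 60 of the 19943 protein-coding ones, examined for the small RNA that maps to them. They are a named list of germ cell, P granule, oocyte and egg genes, set by gene name with earlier results of these data known, and every listed gene was present in the tables of both strands. By role they comprise 15 regulators of translation and fate in the germ line, 13 P granule or germ granule components, 9 RNA-binding proteins of the oocyte and early embryo, 15 egg and eggshell genes, and 8 genes of embryonic polarity and cell division. The libraries came from embryos of a dot-1.1(knu339); ced-3(n1286) double mutant and of a ced-3(n1286) single mutant, with 3 libraries called biological replicates for each genotype. DOT-1.1 is the worm DOT1L, an enzyme that methylates histone H3, and CED-3 is the caspase of programmed cell death. Embryos with the ced-3 allele alone are called ced-3 embryos or the single mutant. Both groups carry that allele, and the comparison therefore concerns the dot-1.1 allele within its background. Per the labels, embryos of both genotypes were freed with hypochlorite from synchronised egg-laying adults kept at 20 °C, and inserts of 18 to 40 bases were sequenced with single reads of 50 bases. The labels give 1 genotype per group and no further strain, so each p-value speaks of the spread among these libraries alone.

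In the worm germ line, RNA-dependent RNA polymerases copy messenger RNAs into short antisense RNAs that Argonaute proteins carry. One Argonaute, CSR-1, binds such RNAs against many genes expressed in germ cells, and P granules, the perinuclear condensates of germ cells, are a place where small RNA factors gather. The mother loads the egg with messenger RNAs and proteins that run the first embryonic divisions before the zygotic genome takes over. Antisense counts record small RNA of the strand opposite to the gene, while sense counts of a protein-coding gene record small RNA or fragments of its own strand.

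The sense table held 19206363 to 26409182 counts per library and the antisense one 4891289 to 6568937. MicroRNA genes took 72.9% to 92.4% of the sense counts, with the highest share of each genotype in single mutant replicate 2 (92.4%) and double mutant replicate 3 (89.5%). The embryonic mir-35 to mir-42 microRNAs had 4834074 to 8563569 sense counts per library, against 307 to 970 for let-7 and lin-4, which mark larvae and adults. The dot-1.1 gene itself had 44, 57 and 40 antisense counts in ced-3 embryos and 34, 45 and 29 in double mutants. Its sense counts were 75, 66 and 55 against 23, 40 and 32, and as small RNA counts these do not check the allele. The 60 genes together had 2662, 2587 and 2576 antisense counts in ced-3 embryos and 2633, 3556 and 1950 in double mutants. They made up 0.358% to 0.652% of the antisense counts of protein-coding genes, so that most results below rest on few counts per gene and library.

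Antisense small RNA was more abundant at these genes than at most protein-coding genes in every library. The level used here is the antisense count per kilobase of the authors' gene width, per 1000000 TMM-scaled antisense counts. Its median over the 60 genes was 1.74, 2.28 and 2.09 in ced-3 embryos and 1.82, 2.33 and 2.15 in double mutants. Over all 19943 protein-coding genes the medians were 0.54, 0.39 and 0.50 in ced-3 embryos and 0.59, 0.50 and 0.55 in double mutants. The 2 sets of medians did not overlap, and the ratio between them lay between 3.10 and 5.87 in the 6 libraries. The protein-coding median includes many genes with few counts. Only 6188 of the 19943 had enough antisense counts to be tested between genotypes, against 51 of the 60. By summed counts the excess was smaller: the 60 genes are 0.301% of protein-coding genes and held 0.358% to 0.652% of their antisense counts. By mean level over the libraries, 58 of the 60 genes stood among the top 9971 protein-coding genes and 19 among the top 1994. A separate list of 67 other germline and maternal genes had library medians of 2.89 to 3.56 and placed 35 genes among those 1994. Lists of other cell types lay lower. Library medians were 0.52 to 0.92 for 14 neuronal genes, 0.39 to 1.09 for 16 muscle genes and 0.22 to 0.83 for 13 intestinal genes. The 20 sperm genes, also a germ cell list, lay at 0.24 to 0.47. These lists are small and were not tested against each other.

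**Figure D1:**
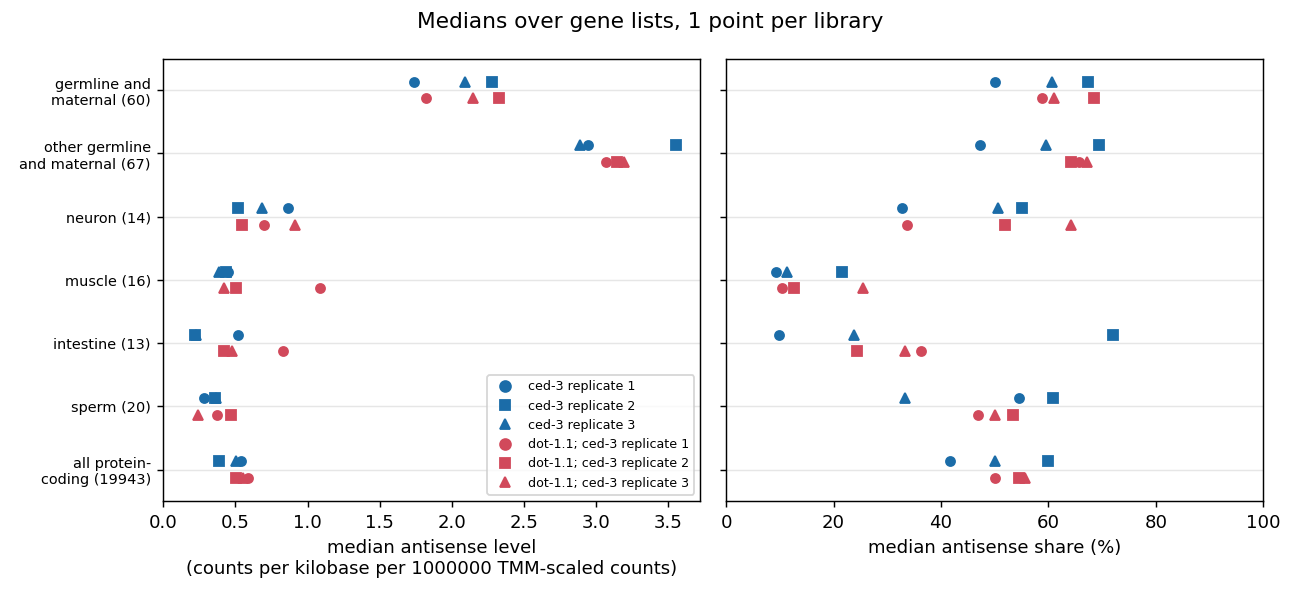
Library medians of the antisense level (left, counts per kilobase per 1000000 TMM-scaled antisense counts) and of the antisense share (right, % of a gene's counts on both strands) for each gene list, with the number of genes in parentheses and 1 point per library. The germline and maternal genes sit at 1.74 to 2.33 on the left, above the 0.39 to 0.59 of all protein-coding genes.

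Levels spread widely within the 60 genes and kept nearly the same order in both genotypes. Mean levels ran from 0.0817 for perm-2, an eggshell gene with 1 antisense count in each of 2 libraries and 0 in the others, to 22.5 for klp-7. Spearman's rho between the mean levels of the 2 genotypes was 0.94 over the 60 genes, a description across genes whose libraries share their depth and scaling. Antisense and sense levels went together less closely, with a rho of 0.55 across the same genes.

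**Figure D2:**
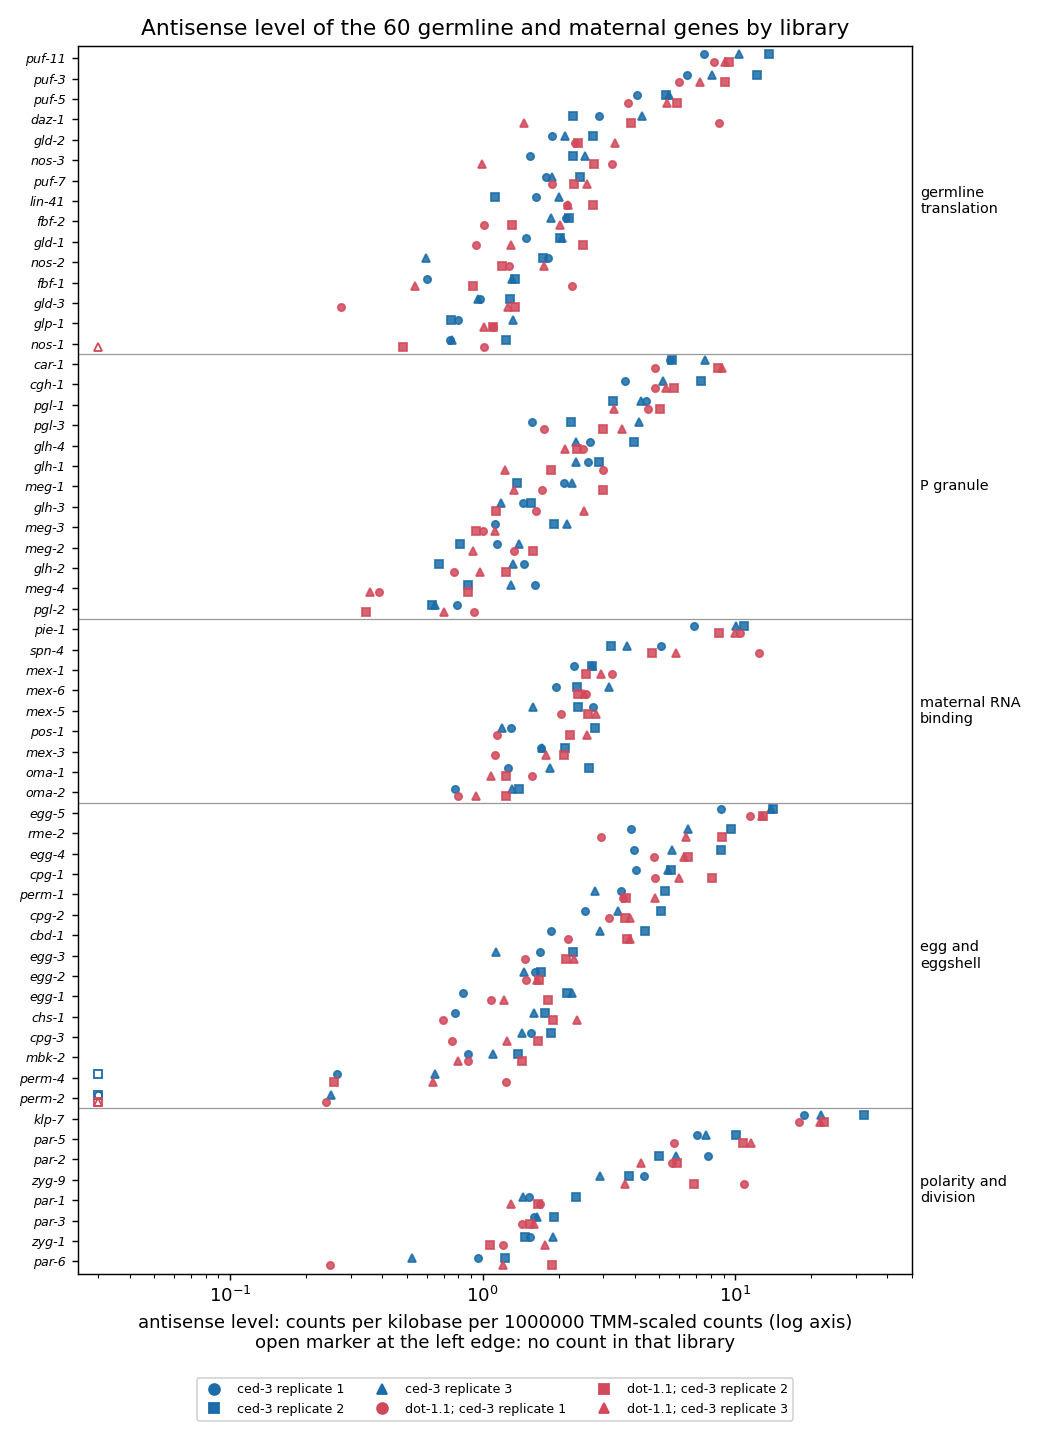
Antisense level of each gene in each of the 6 libraries (log axis, counts per kilobase per 1000000 TMM-scaled antisense counts), ordered by mean level within each role. Points of both genotypes intermix for most genes, and klp-7 stands highest, at 17.9 to 32.4.

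Many of these genes gave more antisense than sense counts. The antisense share, the percentage of a gene's counts on both strands that is antisense, had a median over the genes of 50%, 67.3% and 60.6% in the single mutant libraries and 58.7%, 68.5% and 61.0% in the double mutant libraries. Over all protein-coding genes the medians were 41.7%, 60% and 50% in ced-3 embryos and 50%, 54.5% and 55.6% in double mutants, lower than those of the germline and maternal genes in 6 of 6 libraries by 5.43 to 13.9 percentage points. Strand was tested with edgeR's quasi-likelihood test, with each library as a block, at a Benjamini-Hochberg adjusted p under 0.05. Of 55 genes with enough counts, 24 (43.6%) were called for more antisense counts. The same call was made for 33.2% of all 11323 features tested and 32.9% of the 8835 protein-coding genes among them. More sense counts were called for 5 (9.09%), against 34.5% of all features and 28.1% of protein-coding genes. The other 26 did not pass in either direction. By sign alone, the difference was above 0 for 36 genes (65.5%) and below 0 for 19. Above 0 were 49.7% of all features and 52.8% of protein-coding genes. The differences of the 24 ranged from 0.83 to 4.08 on the log2 scale. The 67 other germline and maternal genes had 28 calls of more antisense and 4 of more sense, of 66 tested. The tissue lists had 1 and 13 of 16 for muscle, 3 and 4 of 12 for neuron and 0 and 5 of 10 for intestine. The sperm list had 2 and 1 of 5.

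An exon on the opposite strand could lend its own reads to an antisense count. Of the 60 genes, 44 had no annotated exon opposite to theirs, and the other 16 had at most 184 such bases, at par-3. Among the 44, 41 were tested, of which 20 (48.8%) were called for more antisense and 4 (9.76%) for more sense counts. Of the 16, 14 were tested, of which 4 (28.6%) were called for more antisense and 1 (7.14%) for more sense counts. Over all features these shares were 33.2% and 34.5%. Of the 29 strand calls, 20 held when any 1 library was left out. The calls of lin-41 and cpg-1 were lost without double mutant replicate 2 and that of pgl-3 without single mutant replicate 3. Those of car-1 and mex-5 were lost without single mutant replicate 2, double mutant replicate 2 or double mutant replicate 3, and that of glh-3 without any of single mutant replicates 2 and 3 and double mutant replicates 1 and 2. The klp-7 call held only when single mutant replicate 2 was the library left out. Calls of more sense at pos-1 and mbk-2 were lost without single mutant replicate 1, single mutant replicate 3 or double mutant replicate 1, each of which left 3 of the 5.

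**Figure D3:**
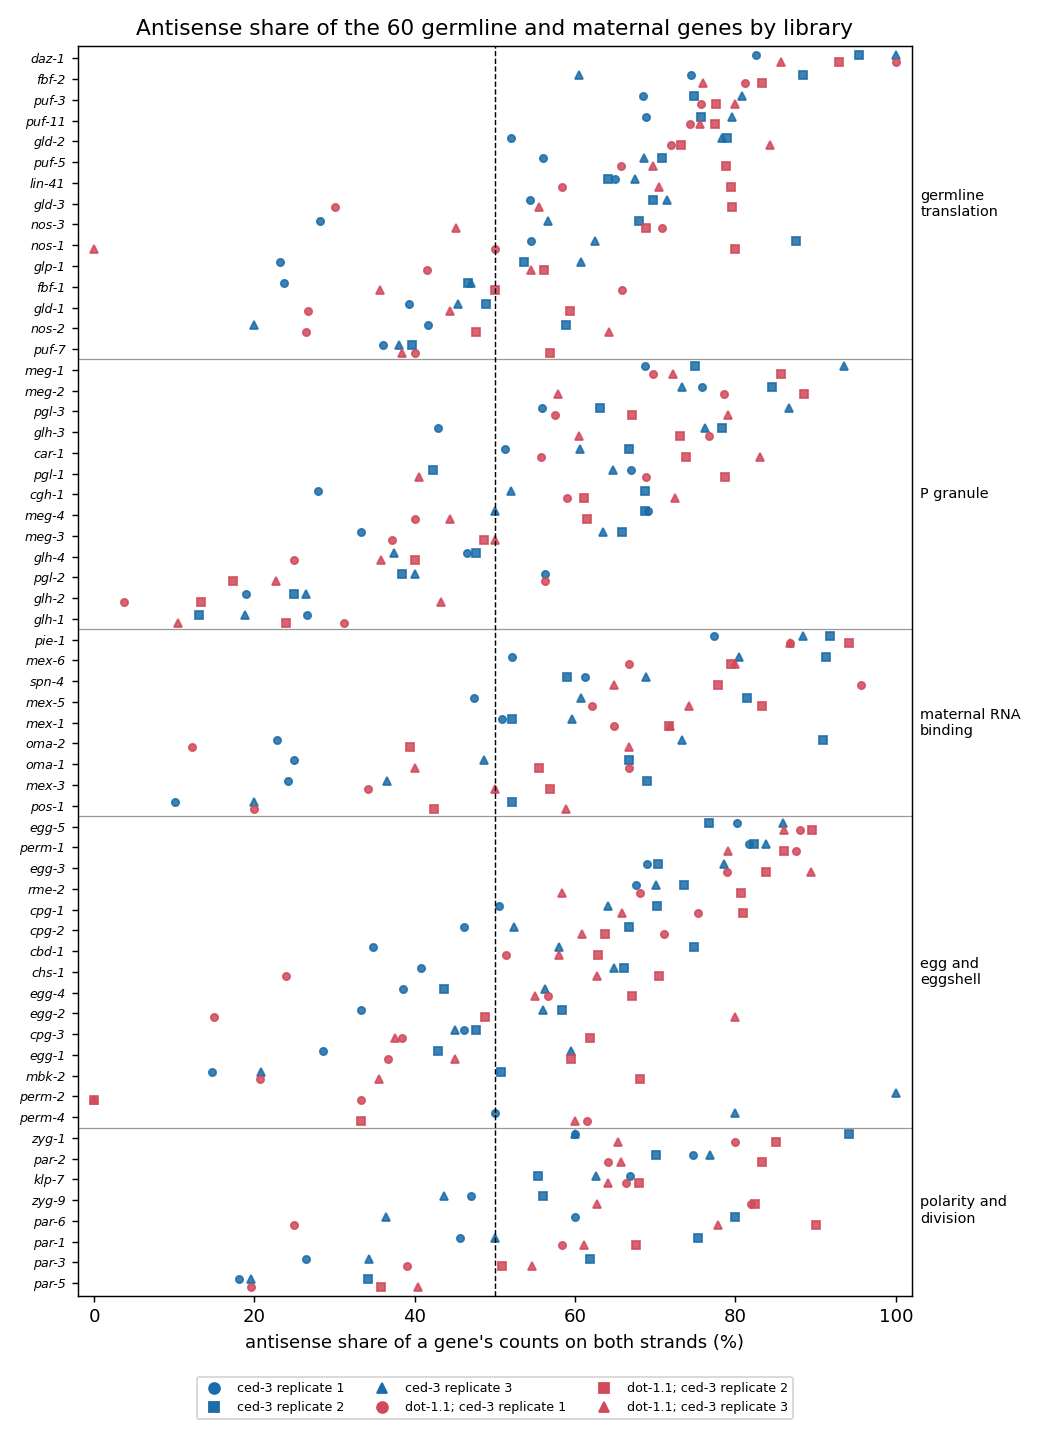
Antisense share (%) of each gene in each library, grouped by role and ordered by mean share, with a dashed line at 50%. Genes such as pie-1, at 77.3% to 94.2%, lie right of the line in every library, and glh-1, at 10.5% to 31.1%, lies left of it.

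Among the 15 regulators of germline translation and fate, the PUF genes puf-11, puf-3 and puf-5 had the highest antisense levels. PUF proteins bind sites in the 3' untranslated regions of messenger RNAs and repress them, and puf-3, puf-5, puf-7 and puf-11 act in oocytes. The antisense level of puf-11 (chromosome IV, 6421585 to 6423497, WBcel235) was 7.5, 13.6 and 10.4 in ced-3 embryos and 8.26, 9.41 and 9.11 in double mutants. That of puf-3 (chromosome IV, 13510307 to 13512162) was 6.42, 12.2 and 8.06 against 5.98, 9.10 and 7.24. The genotypes overlapped for both genes. Mean levels over the 6 libraries were 9.71 ± 2.14 (SD, n = 6) for puf-11, rank 539 among protein-coding genes, 8.16 ± 2.26 for puf-3, rank 666, and 4.97 ± 0.848 for puf-5. The other PUF genes of the role lay lower, with 2.14 for puf-7, 1.76 for fbf-2 and 1.16 for fbf-1. The antisense shares of puf-11 and puf-3 were 75.2% ± 3.63 and 76.2% ± 4.45. Their strand differences were 1.61 and 1.68 on the log2 scale (edgeR, adjusted p = 0.000222 and 0.000143).

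Of the 14 tested genes of this role 7 (50%) were called for more antisense counts, beside 33.2% of all features. They were puf-3, puf-5, puf-11, fbf-2, gld-2, daz-1 and lin-41. More sense counts were called for 0, beside 34.5% of all features. The largest strand difference of the 55 genes was that of daz-1, whose RNA-binding product is needed for oogenesis, with 38, 21, 46, 97, 52 and 12 antisense counts in the 6 libraries, single mutant first, and 8, 1, 0, 0, 4 and 2 sense counts. Its strand difference was 4.08 ± 0.62 (SE) on the log2 scale (edgeR, adjusted p = 2.96e-06). A similar side was taken by gld-2, the catalytic subunit of a cytoplasmic poly(A) polymerase, with a share of 73.1% ± 11.3 (SD, n = 6) and a strand difference of 1.5 (edgeR, adjusted p = 0.00106). Not all genes of this role did so. The share of gld-1, whose product represses many maternal messenger RNAs in the pachytene germ line, was 44.0% ± 10.8, and that of glp-1, the Notch receptor that keeps germline stem cells, was 48.3% ± 13.8. Low counts limited the 3 nanos genes: nos-1 had 0 to 7 antisense counts per library and nos-2 4 to 15, and neither reached the filter of the antisense genotype test. With 14 to 64 counts nos-3 did.

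Of the 13 P granule and germ granule genes 12 were tested for strand. More antisense was called for 5 (41.7%) and more sense for 2 (16.7%), beside 33.2% and 34.5% of all features, so the antisense share of calls was near that background. The assembly factors meg-1 and meg-2, which encode disordered proteins of the embryonic granules, had antisense shares of 77.5% ± 9.97 and 76.5% ± 10.7 (SD, n = 6), with strand differences of 1.84 and 1.74 on the log2 scale (edgeR, adjusted p = 0.000692 and 0.00146). The other calls of more antisense were pgl-3, which encodes an RGG-repeat scaffold protein, glh-3 and car-1. In the level plot car-1, which encodes an RNA-binding protein of granules in germ cells and embryos, led this role with 5.52, 5.62 and 7.56 in ced-3 embryos and 4.81, 8.54 and 8.87 in double mutants. The genotypes overlapped, and the mean was 6.82 ± 1.72 (rank 841).

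The 4 glh genes encode Vasa-like RNA helicases of the P granule, and they differed in strand. At glh-1 (chromosome I, 6854478 to 6857536) sense counts were 133, 245 and 151 in ced-3 embryos and 104, 111 and 119 in double mutants, beside antisense counts of 48, 37 and 35 against 47, 35 and 14. Sense exceeded antisense in all 6 libraries, with a share of 20.7% ± 7.97 (SD, n = 6) and a strand difference of -2.01 ± 0.39 (SE) on the log2 scale (edgeR, adjusted p = 6.03e-05). The same direction was called at glh-2, with a share of 21.8% ± 13.4 and a strand difference of -2.16 ± 0.47 (edgeR, adjusted p = 0.000243). At glh-4 the share was 38.7% ± 8.30 and the strand difference of -0.68 did not pass (edgeR, adjusted p = 0.0948). By contrast glh-3 had a share of 67.9% ± 13.9 and more antisense counts (edgeR, adjusted p = 0.0331), a call lost without any of 4 libraries as given above.

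Among the 9 maternal RNA-binding genes, pie-1 had the highest antisense level and the highest antisense share of the 32 genes with at least 30 counts on both strands together in every library. PIE-1 is a zinc finger protein that keeps transcription off in the germline blastomeres. Antisense counts at pie-1 (chromosome III, 12426893 to 12429195) were 51, 56 and 61 in ced-3 embryos and 66, 65 and 46 in double mutants, and sense counts were 15, 5 and 8 against 10, 4 and 7. Antisense exceeded sense in every library, the genotypes overlapped on both strands, and the share was 87.6% ± 5.83 (SD, n = 6). Its level was 9.47 ± 1.47, and its strand difference was 2.86 ± 0.41 (SE) on the log2 scale (edgeR, adjusted p = 7.83e-07). The pie-1 exons have 24 bases opposite to exons of another gene. More antisense was also called for spn-4, mex-5 and mex-6, which encode RNA-binding proteins that pattern the early embryo. All 9 genes of this role were tested for strand. More antisense was called for 4 (44.4%) and more sense for 1 (11.1%), beside 33.2% and 34.5% of all features. The antisense calls were near that background.

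The only gene of this role called for more sense counts was pos-1, which encodes a zinc finger protein of the posterior blastomeres. It had 71, 11 and 24 sense counts in ced-3 embryos and 24, 19 and 7 in double mutants. Its antisense counts were 8, 12 and 6 against 6, 14 and 10. Antisense thus exceeded sense in single mutant replicate 2 and double mutant replicate 3. Its strand difference was -1.18 ± 0.49 (SE) on the log2 scale (edgeR, adjusted p = 0.0352). For mex-1, mex-3, oma-1 and oma-2 neither strand was called. OMA-1 and OMA-2 are zinc finger proteins needed for oocyte maturation.

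Of the 15 egg and eggshell genes, 13 were tested for strand, with 5 calls of more antisense (38.5%, near the 33.2% of all features) and 1 of more sense (7.69%, against 34.5%). The second highest antisense level of the 60 genes was that of egg-5, which encodes a pseudophosphatase that restrains the kinase MBK-2 in oocytes. Its level (chromosome I, 4168984 to 4171589) was 8.81, 14.1 and 13.8 in ced-3 embryos and 11.5, 12.9 and 12.7 in double mutants, so that the genotypes overlapped around a mean of 12.3 ± 1.95 (SD, n = 6; rank 405). Its antisense share was 84.4% ± 4.92 and its strand difference 2.48 ± 0.38 (SE) on the log2 scale (edgeR, adjusted p = 2.71e-06). The share of perm-1, an eggshell gene, was 83.4% ± 3.06 with a strand difference of 2.32 (edgeR, adjusted p = 1.24e-05).

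The yolk receptor gene rme-2 varied more between libraries than egg-5. Its antisense level was 3.86, 9.64 and 6.48 in ced-3 embryos and 2.94, 8.88 and 6.36 in double mutants, lowest in replicate 1 of both. The mean was 6.36 ± 2.65 (SD, n = 6; rank 913). The eggshell proteoglycan gene cpg-1 and the scaffold gene egg-3 also had more antisense counts, while cpg-2, cpg-3, cbd-1, chs-1, egg-1, egg-2 and egg-4 were called for neither strand. The kinase gene mbk-2 was the exception, with 163, 30 and 110 sense counts in ced-3 embryos and 92, 22 and 29 in double mutants beside 16 to 47 antisense counts per library. Its share was 35.1% ± 20.8 and ran from 14.7% to 68.1%. The strand difference of -1.07 ± 0.45 (SE) passed (edgeR, adjusted p = 0.0372) and reached adjusted p = 0.149, 0.133 and 0.0985 without single mutant replicate 1, single mutant replicate 3 and double mutant replicate 1. Counts of perm-2 and perm-4 were too low for any of the tests.

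Among the 8 polarity and division genes, klp-7 had the highest antisense level of all 60 genes. It encodes a kinesin that depolymerises microtubules. Antisense counts at klp-7 (chromosome III, 10805925 to 10811001) were 309, 375 and 297 in ced-3 embryos and 254, 378 and 223 in double mutants, and sense counts were 153, 302 and 177 against 129, 178 and 125. Antisense exceeded sense in every library and the genotypes overlapped in antisense counts. The level was 18.6, 32.4 and 21.9 in ced-3 embryos and 17.9, 22.4 and 21.6 in double mutants, with a mean of 22.5 ± 5.18 (SD, n = 6; rank 216). Its share was 63.9% ± 4.59, and its strand difference of 0.83 passed narrowly (edgeR, adjusted p = 0.0422).

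The 5 par genes, which set the anterior-posterior axis of the zygote, took different sides. More antisense was called at par-2, which encodes a posterior RING finger protein, with a level of 5.71 ± 1.19 (SD, n = 6) and a share of 72.5% ± 7.25 (edgeR, adjusted p = 0.00105). The 14-3-3 protein gene par-5 had a level of 8.79 ± 2.33 (rank 607) but more sense counts, 235, 100 and 189 in ced-3 embryos and 148, 145 and 78 in double mutants against 36 to 81 antisense counts. Its share was 28.0% ± 9.95 and its strand difference -1.43 ± 0.39 (SE) on the log2 scale (edgeR, adjusted p = 0.00195). For par-1, a kinase gene, and par-3, a PDZ scaffold gene, levels were 1.66 ± 0.367 and 1.62 ± 0.162 and neither strand was called. The last of them, par-6, had 2 to 18 antisense counts per library and was not tested. The centriole kinase gene zyg-1 had more antisense counts (edgeR, adjusted p = 0.00765). Of the 8 polarity and division genes, 7 were tested for strand. More antisense was called for 3 (42.9%) and more sense for 1 (14.3%), beside 33.2% and 34.5% of all features. The antisense calls were near that background.

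Related genes, which often act redundantly, were compared within each library. The counting of reads that match several places is not described in the sources, so counts of near-identical copies are uncertain. The pseudophosphatase genes egg-4 and egg-5 have the same width of 2364 bases. The egg-5 antisense level exceeded that of egg-4 in 6 of 6 libraries, by 1.61 to 2.46 times, while its sense level was 0.343 to 0.518 times that of egg-4. Their shares were 84.4% for egg-5 and 52.8% for egg-4, and the 2 genes thus ran in opposite directions on the 2 strands of the same libraries. Between puf-3 and puf-11 the antisense ratio was 1.03 to 1.38, with puf-11 higher in 6 of 6 libraries. In the other PUF pair, puf-7 was at 0.344 to 0.503 times the level of puf-5 in 6 of 6 libraries, and its share was 41.5% against 68.3%.

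Among germ granule pairs, meg-2 was lower than meg-1 and glh-2 lower than glh-1 in 6 of 6 libraries. The stem cell regulator fbf-2 was higher than fbf-1 in 5 of 6 libraries, with a share above that of fbf-1 in 6 of 6, 77.3% against 44.8% on average. The antisense level of oma-2 was higher than that of oma-1 in 1 of 6 libraries, that of meg-4 higher than meg-3 in 1 of 6, that of mex-6 higher than mex-5 in 2 of 6, and that of egg-2 higher than egg-1 in 3 of 6. None of these 4 pairs kept 1 order in all libraries.

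**Figure D4:**
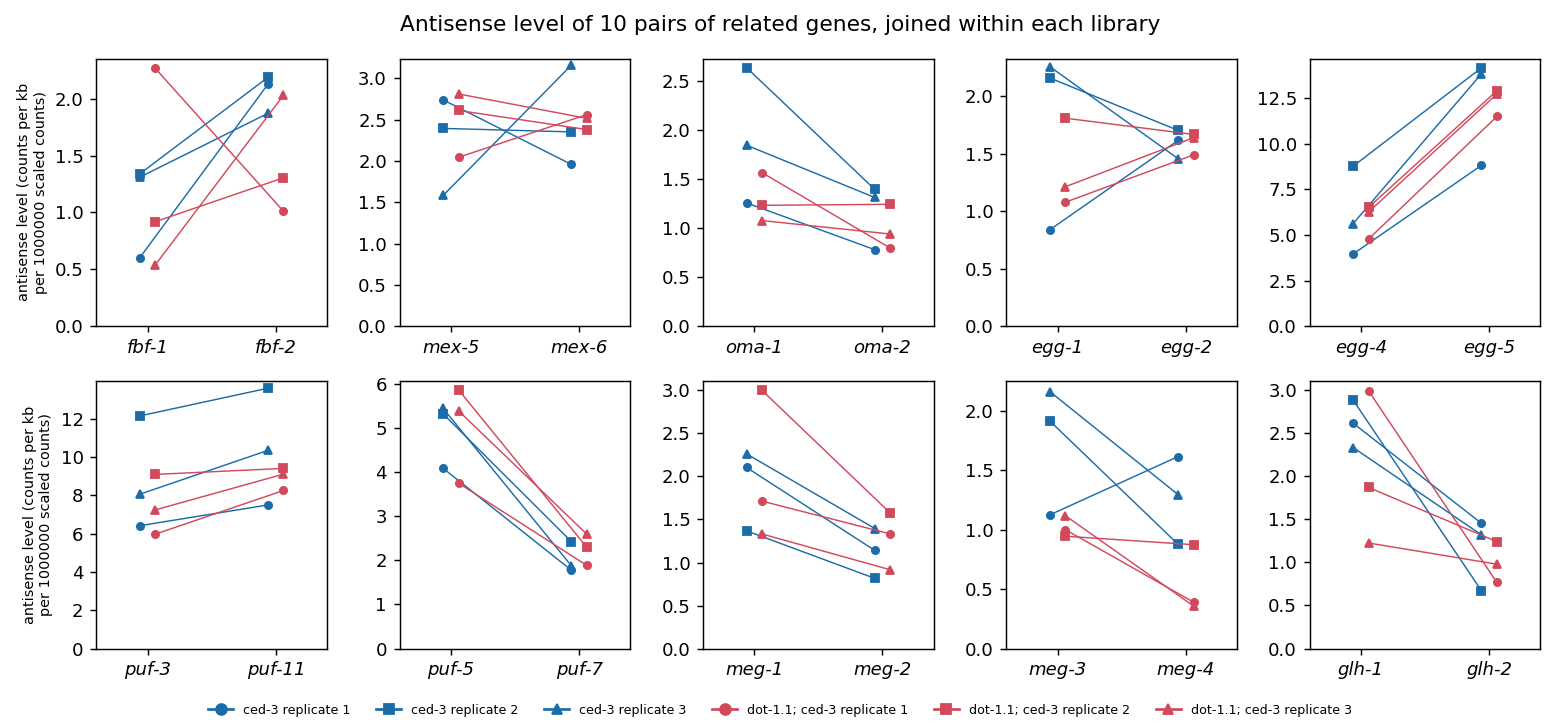
Antisense level (counts per kilobase per 1000000 TMM-scaled antisense counts, linear axes from 0) of 10 pairs of related genes, with the 2 genes of a pair joined by a line within each library. All 6 lines rise from egg-4 to egg-5 and from puf-3 to puf-11, and all 6 fall from puf-5 to puf-7, from meg-1 to meg-2 and from glh-1 to glh-2.

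The dot-1.1 allele was not accompanied by a called difference in antisense small RNA at any of these genes. Of the 60, 51 had enough antisense counts to be tested with edgeR's quasi-likelihood test, and 0 passed a Benjamini-Hochberg adjusted p under 0.05, where 0 of all 7297 features tested (0%) did. At an unadjusted p under 0.05 there was 1 gene (1.96%), meg-4, against 5.26% of all features. The log2 fold changes of the double over the single mutant were above 0 for 27 and below 0 for 24, with a median of 0.01 beside 0.02 over all features. Standard errors ran from 0.28 to 0.58 with a median of 0.37 on the log2 scale, and a p that misses the threshold does not show that levels were alike. In embryos as a bulk sample, fewer cells with a small RNA and less of it per cell cannot be told apart. The normalised antisense counts of the genotypes did not overlap for 3 of the 51 genes (5.88%), against 10.3% of all features, with lin-41 higher and meg-3 and meg-4 lower in the double mutant.

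The smallest antisense p was that of meg-4, a P granule assembly gene. It had 29, 11 and 19 antisense counts in ced-3 embryos and 6, 16 and 4 in double mutants. On the length-scaled level, double mutant replicate 2 at 0.873 lay just under single mutant replicate 2 at 0.875, so that the genotypes were barely separate. The log2 fold change was -1.18 ± 0.48 (SE; unadjusted p = 0.036, edgeR's adjusted p = 0.847). Its partner meg-3 had 21, 25 and 33 counts against 16, 18 and 13, a log2 fold change of -0.76 ± 0.37 (edgeR, adjusted p = 0.847). Levels of meg-3 in the double mutant were 0.999, 0.944 and 1.12, close to the lowest single mutant library at 1.12.

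Fold changes above 0 were largest at zyg-9 and spn-4. The maternal RNA-binding gene spn-4 had 52, 23 and 31 antisense counts in ced-3 embryos and 109, 49 and 37 in double mutants, and double mutant replicate 1 was the high one. Its log2 fold change was 0.93 ± 0.43 (SE; edgeR, adjusted p = 0.847). The microtubule polymerase gene zyg-9 had 132, 80 and 72 against 281, 211 and 69 counts, with replicates 1 and 2 of the double mutant high and replicate 3 within the range of the single mutant by level, and its log2 fold change was 0.95 ± 0.45 (edgeR, adjusted p = 0.847). For lin-41, a regulator of oocyte growth, counts of 52, 25 and 52 stood against 59, 89 and 43. By level it was at 1.63, 1.12 and 2.00 against 2.16, 2.74 and 2.17, with all 3 double mutant libraries above the others and a log2 fold change of 0.57 ± 0.33 (edgeR, adjusted p = 0.847). The remaining genes with small p were fbf-2 at -0.53 ± 0.37, oma-1 at -0.54 ± 0.41 and glh-4 at -0.35 ± 0.32, with adjusted p from 0.856 to 0.891.

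**Figure D5:**
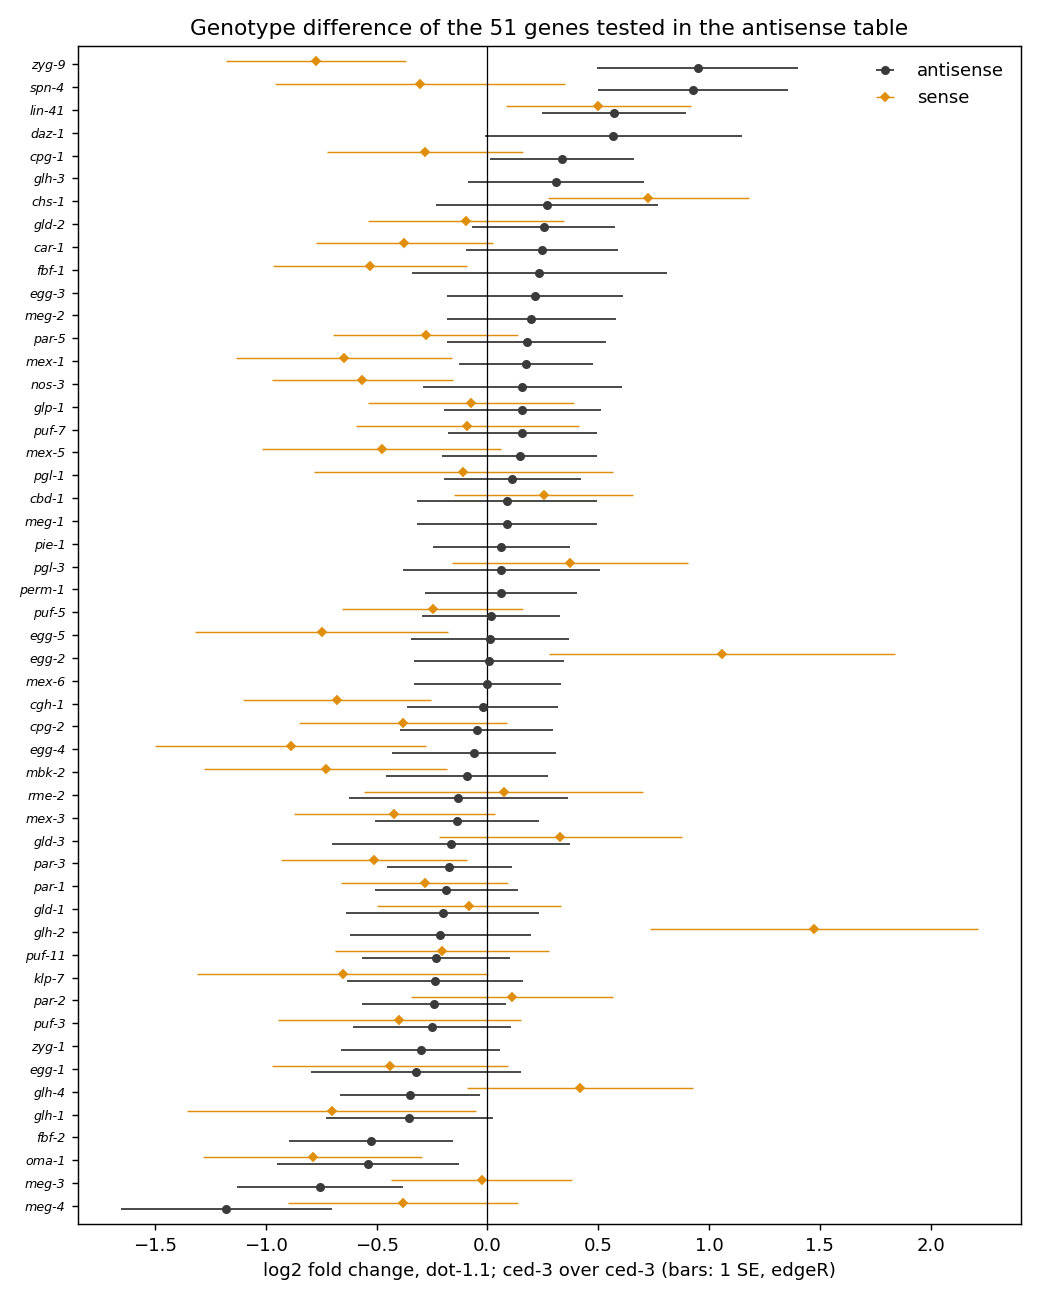
Log2 fold change of the double over the single mutant for the 51 genes tested in the antisense table, with the sense value where it was tested and bars of 1 SE (edgeR). Antisense values run from -1.18 at meg-4 to 0.95 at zyg-9, and no gene passed the adjusted threshold on either strand.

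On the sense strand 45 of the genes could be tested, and 0 passed, where 0 of 7680 features (0%) did. None of the 45 had an unadjusted p under 0.05 by edgeR, against 8.12% of all features. More of the fold changes lay below 0 than above, 33 against 12. Those above 0 were 26.7% of the genes tested, beside 50.8% of all features and 45.8% of protein-coding genes. The median was -0.28 on the log2 scale, beside 0.01 over all features and -0.07 over protein-coding genes. The median of the germline and maternal genes turned to 0.02 when single mutant replicate 2 was left out. It was -0.54 when libraries were scaled by their totals. For 4 genes (8.89%) the genotypes did not overlap, against 12.8% of all features, and fbf-1, nos-3, car-1 and zyg-9 were all lower in the double mutant. The tissue and sperm lists had medians on the other side of 0 on this strand. They were 0.97 for muscle with 15 of 16 genes above 0, 1.64 for intestine with 6 of 9 and 0.42 for neuron with 7 of 10. For the 2 sperm genes tested the median was 0.38. Unadjusted p under 0.05 was found for 3 muscle, 4 intestinal and 1 neuronal gene, all higher in the double mutant, and their part in the values of the 60 genes was not tested. Sums of sense counts over the 60 genes were 3101, 1787 and 1996 in ced-3 embryos and 2276, 1810 and 1289 in double mutants.

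Of the 5 genes with the smallest sense p, glh-2, oma-2 and chs-1 had fold changes above 0, and zyg-9 and cgh-1 below 0. At glh-2 sense counts were 132, 30 and 64 in ced-3 embryos and 358, 176 and 17 in double mutants, so that the double mutant held both the highest and the lowest library (log2 fold change 1.47 ± 0.74, SE; edgeR, adjusted p = 0.592). The same 2 double mutant libraries were high at oma-2, with 27, 1 and 4 counts against 50, 20 and 3 (1.56 ± 0.84; edgeR, adjusted p = 0.606). For zyg-9 counts were 149, 63 and 93 against 62, 45 and 41. Its sense level, per kilobase and 1000000 TMM-scaled sense counts, was 0.873, 1.06 and 0.847 against 0.556, 0.435 and 0.637, so that the genotypes did not overlap (-0.77 ± 0.41; edgeR, adjusted p = 0.599). At the germ granule helicase gene cgh-1 they were 142, 35 and 59 against 43, 56 and 19 (-0.68 ± 0.42; edgeR, adjusted p = 0.638), and at the chitin synthase gene chs-1 32, 18 and 20 against 54, 23 and 25 (0.73 ± 0.45; edgeR, adjusted p = 0.638). Double mutant replicate 3, low at glh-2 and oma-2, was the library of its genotype with the largest microRNA share, and the part of that share in these values was not tested.

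A strand-by-genotype interaction, which asks whether antisense and sense counts differ between genotypes to unequal extents, was tested in 55 of the genes. None passed, where 0 of 11323 features (0%) did, and 1 gene, zyg-9, had an unadjusted p under 0.05, against 5.62% of all features. The interaction was above 0 for 37 of the 55 (67.3%) and below 0 for 18, with a median of 0.17 on the log2 scale. Above 0 were 53% of all features (median 0.07) and 55.8% of protein-coding genes (median 0.13). These signs were not tested as a set. The antisense share of zyg-9 was 47.0%, 55.9% and 43.6% in ced-3 embryos and 81.9%, 82.4% and 62.7% in double mutants. All 3 double mutant libraries lay above the single mutant ones, with an interaction of 1.64 ± 0.74 (SE) on the log2 scale (unadjusted p = 0.035, edgeR's adjusted p = 0.831). The next were oma-2 at -1.73 ± 1.02, glh-2 at -1.21 ± 0.79, spn-4 at 1.24 ± 0.81 and glh-4 at -0.82 ± 0.64, with edgeR's adjusted p from 0.906 to 0.927.

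A two-sided exact permutation test of the share itself, in the 32 genes with at least 30 counts on both strands in every library, cannot go below p = 0.1 with 3 libraries against 3. It is reached wherever the genotypes do not overlap, which was so for 3 genes (9.38%), mex-1, egg-5 and zyg-9, and for 8.13% of the 3716 features with as many counts. That is near the background and no result about these genes. Mean shares of the single and the double mutant were 54.2% and 69.5% at mex-1, 81.0% and 87.9% at egg-5, and 48.9% and 75.7% at zyg-9, differences that the test could not call. At egg-5 the libraries were 80.2%, 76.7% and 85.9% against 88.0%, 89.6% and 86.1%. The nearest libraries of the genotypes, at 85.9% and 86.1%, almost met.

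The 67 other germline and maternal genes likewise had 0 calls between genotypes by edgeR, of 63 tested on the antisense and 59 on the sense strand. An unadjusted p under 0.05 was found for 1 gene on the antisense strand (1.59%) and 4 on the sense strand (6.78%), beside 5.26% and 8.12% of all features. Their median log2 fold changes were -0.09 and -0.27, beside 0.01 and -0.28 for the 60 genes. The smallest antisense p was that of cey-3, a cold-shock domain gene of the germ line, with 9, 12 and 8 antisense counts in ced-3 embryos and 63, 26 and 12 in double mutants (log2 fold change 1.74 ± 0.58, SE; edgeR, adjusted p = 0.847). Behind it came the Argonaute gene csr-1 at -0.60 ± 0.31, the RNA-binding protein gene rnp-8 at -0.48 ± 0.27, the centriole gene sas-6 at 1.03 ± 0.58 and the Polo-like kinase gene plk-2 at -0.54 ± 0.31. On the sense strand the smallest p values were those of the cyclin gene cyb-1 at -1.19 ± 0.44, the importin gene ima-2 at 1.62 ± 0.65, the anaphase-promoting complex gene mat-3 at -1.19 ± 0.50, the Tudor domain gene ekl-1 at 2.18 ± 0.93 and the Polycomb-like complex gene mes-3 at -1.22 ± 0.64, with edgeR's adjusted p from 0.592 to 0.601.

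Marker lists of other tissues and of sperm were also summed in each library. Summed normalised antisense counts of the 60 genes ran from 401.6 to 558.1 per 1000000 in the single mutant and from 464.0 to 526.0 in the double mutant. Those of the 16 muscle genes ran from 79.6 to 215.0 against 96.2 to 197.9, those of the 14 neuronal genes from 112.8 to 208.0 against 111.0 to 198.8, those of the 13 intestinal genes from 13.8 to 22.9 against 18.8 to 36.1, and those of the 20 sperm genes from 14.2 to 47.4 against 17.2 to 55.0. On the sense strand the summed normalised counts ran from 82.9 to 137.6 against 79.8 to 93.1 for the 60 genes, 31.8 to 71.8 against 26.3 to 157.4 for muscle, 5.31 to 8.74 against 8.07 to 13.05 for neuron, 3.85 to 32.7 against 20.6 to 29.4 for intestine and 2.51 to 4.32 against 3.62 to 5.56 for sperm. Ranges of the genotypes overlapped for every list on both strands, and no gene of these 4 lists was at 0 antisense counts over all libraries. The part of these tissues and of sperm in the values of the germline and maternal genes was not tested.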

How the data were processed

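Small RNA libraries from embryos of 2 genotypes, 3 each, were analysed from 2 tables of raw counts deposited by the authors, per the file headers, with 32238 genes, 1 column per library and a gene width in bases. The deposited width is given per the file headers only and its making is not stated. The genome build is WBcel235 per the submitters' processing notes, while the sources used here give neither the aligner nor the counter or the handling of multi-place reads. One table is named antisense; the other held 99.5% of the counts of 260 microRNA genes and was read as sense. Genotype and replicate number tied each column to a sample. Short names in the titles of replicates 2 and 3 hold other numbers, so the numbering within a genotype is uncertain. Gene classes came from RefSeq and positions and exons from Ensembl, both of WBcel235, with 29924 genes matched to 1 Ensembl gene and 31466 given a class. The width of 53 of the 60 genes lay within 5% of the summed exon length.

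Tests used edgeR 4.0.16 in R 4.3.3 with its low count filter, TMM scaling per table, a robust quasi-likelihood F test over all features and Benjamini-Hochberg adjustment. The SE is the log2 fold change divided by the square root of F. The strand difference used both tables' total as library size, and the interaction scaled each strand by its own TMM size, both with library as a block. Totals were 19206363 to 26409182 sense and 4891289 to 6568937 antisense counts. Alternatives were DESeq2 1.42.0, other scalings, no low count filter, each library left out, the microRNA-rich libraries left out, other gene lengths and the replicate number as a block. The procedures were tested on simulated data with known changes.

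The genes and lists were chosen with earlier results of these data known. Named were the 8 genes with the highest level, the 8 with the smallest antisense p, the 5 with the smallest sense and the 5 with the smallest interaction p, the 5 highest and 5 lowest antisense shares among genes with at least 30 counts in every library, 10 related pairs, the par genes, and the 5 smallest p of the other germline list per strand. Other genes are named where a count or a role calls for them and were picked with their values already seen.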

Additional observations from a re-analysis of the deposited data

How the results depend on the processing

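None of the 60 genes was called between genotypes, or in the interaction, under any alternative run. Counts over all features did move, from 0 in the antisense test to 0 higher and 6 lower with DESeq2 on all genes, 1 and 7 with DESeq2 on the genes edgeR tested, and 89 and 25 with no low count filter. In the sense test they moved from 0 to 9 and 1 with DESeq2 on all genes, 102 and 15 with no filter, and 142 and 9 without the 2 microRNA-rich libraries. Leaving out 1 library gave 0 to 6 sense calls higher, with 6 without double mutant replicate 3, and 0 to 68 interaction calls, with 68 without double mutant replicate 3 and 9 without double mutant replicate 1. Without both microRNA-rich libraries, a setting chosen after seeing the data for the interaction, 40 were called. The median log2 fold change of the genes ran from -0.13, without single mutant replicate 1, to 0.069 in the antisense test and from -0.45 to 0.019 in the sense test as 1 library was left out, and was -0.54 in the sense test with library totals. Genes called for more antisense ranged from 18 to 23 and those called for more sense from 3 to 5 in the same way. The cause of these moves was not tested. The median level stayed within 1.99 to 2.32 and the median share within 57.0% to 63.2% under all alternatives. Same-numbered libraries correlated at 0.64, -0.02 and -0.01 in antisense and 0.69, 0.02 and -0.12 in sense deviations from the genotype mean. Single mutant replicate 2 and double mutant replicate 3 correlated at 0.56 and 0.60. The numbering within a genotype is uncertain, so these values cannot decide whether samples were paired. With the replicate block 0 genes were called and the medians were 0.03 and -0.28. The standard errors limit what could be called.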
